A study of Homo sapiens with 4 samples.

Results

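The 3 distal chromosome arms that HCT116 cells are known to carry in extra copies were examined for open chromatin. They were taken by position in hg38 as chromosome 8 from 67 Mb to its end (8q), chromosome 10 from 100 Mb to its end (10q) and chromosome 17 from 42 Mb to its end (17q). No measured value entered the choice. The called peaks of 4 ATAC-seq libraries merged into 122856 regions, and 10278 of these lay in the 3 segments, with 3973 on 8q, 2461 on 10q and 3844 on 17q. The rest of the same chromosomes held 9286 regions and served for comparison. No region crossed a border. The libraries were 2 labelled FOXD2 and 2 labelled Control, numbered 1 and 2 in each group. All came from HCT116, an established human colorectal carcinoma line. The FOXD2 cells had received a pSin lentivirus that carries the whole coding region of FOXD2, which belongs to the forkhead transcription factors. The Control cells had received the same vector without an insert. Both were kept as stable cells under puromycin. The labels do not state whether the 2 libraries of a group were separate cultures, and p-values therefore measure a spread that may be technical.

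ATAC-seq uses the Tn5 transposase to cut and tag DNA that nucleosomes leave free, so promoters and enhancers in use give peaks of read ends. HCT116 is near-diploid, and its cytogenetic hallmarks are duplicated or translocated pieces of 8q, 10q and 17q. These arms carry genes with well-known roles in colorectal cells: MYC and YWHAZ on 8q, TCF7L2 and SUFU on 10q, and STAT3, GRB2, AXIN2 and the HOXB cluster on 17q. A cell with more copies of a locus offers Tn5 more DNA there. Copy number was not measured in these files, and the share of cells in which a site is open cannot be told apart from how open it is in each cell.

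The following promoters are shown because the regions named for 10q and 17q cover all or part of them: COL17A1 and SORCS3 from regions called in both FOXD2 and no Control library, SPRN from a region called in both Control and no FOXD2 library, and CCDC186, TRIM37 and NOL11 from the strongest peaks common to all 4 libraries. Each runs 5′ to 3′ from 250 bases before to 50 bases after the gene's start in RefSeq GRCh38.p14, the hg38 build. Capitals mark matches on either strand to 6 motifs: TGTTTAC of forkhead factors, TGANTCA of AP-1, CACGTG of the E-box, CCAAT of the box with that name, CCGGAAG of ETS factors and GGGCGG of the GC box. In SPRN a GC box and a CCAAT box share a base.
COL17A1: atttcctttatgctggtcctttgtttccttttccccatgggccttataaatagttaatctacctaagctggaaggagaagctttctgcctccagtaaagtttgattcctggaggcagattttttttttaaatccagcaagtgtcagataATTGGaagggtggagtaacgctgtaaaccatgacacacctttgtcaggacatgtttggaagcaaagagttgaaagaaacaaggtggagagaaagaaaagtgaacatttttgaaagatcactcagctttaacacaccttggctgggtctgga
SORCS3: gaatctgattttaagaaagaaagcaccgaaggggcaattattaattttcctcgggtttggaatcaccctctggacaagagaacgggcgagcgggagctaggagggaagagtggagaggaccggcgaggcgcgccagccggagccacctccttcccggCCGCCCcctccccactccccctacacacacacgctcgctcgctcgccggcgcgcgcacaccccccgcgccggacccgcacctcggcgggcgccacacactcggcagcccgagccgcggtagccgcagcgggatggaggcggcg
SPRN: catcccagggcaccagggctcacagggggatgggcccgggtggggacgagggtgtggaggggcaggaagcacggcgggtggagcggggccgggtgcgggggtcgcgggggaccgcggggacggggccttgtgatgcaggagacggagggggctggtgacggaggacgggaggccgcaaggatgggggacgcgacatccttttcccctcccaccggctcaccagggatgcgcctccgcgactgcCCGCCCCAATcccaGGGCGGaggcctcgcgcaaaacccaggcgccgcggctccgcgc
CCDC186: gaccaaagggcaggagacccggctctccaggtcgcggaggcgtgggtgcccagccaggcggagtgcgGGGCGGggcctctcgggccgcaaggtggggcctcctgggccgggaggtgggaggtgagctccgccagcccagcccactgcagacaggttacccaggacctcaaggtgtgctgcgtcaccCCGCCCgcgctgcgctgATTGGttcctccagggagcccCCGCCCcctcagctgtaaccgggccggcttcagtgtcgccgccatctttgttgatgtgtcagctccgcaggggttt
TRIM37: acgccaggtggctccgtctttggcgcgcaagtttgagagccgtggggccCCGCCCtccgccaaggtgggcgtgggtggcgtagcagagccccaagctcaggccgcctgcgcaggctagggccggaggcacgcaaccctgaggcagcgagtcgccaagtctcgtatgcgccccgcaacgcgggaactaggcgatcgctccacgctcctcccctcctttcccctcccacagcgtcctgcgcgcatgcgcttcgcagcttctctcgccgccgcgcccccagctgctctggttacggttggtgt
NOL11: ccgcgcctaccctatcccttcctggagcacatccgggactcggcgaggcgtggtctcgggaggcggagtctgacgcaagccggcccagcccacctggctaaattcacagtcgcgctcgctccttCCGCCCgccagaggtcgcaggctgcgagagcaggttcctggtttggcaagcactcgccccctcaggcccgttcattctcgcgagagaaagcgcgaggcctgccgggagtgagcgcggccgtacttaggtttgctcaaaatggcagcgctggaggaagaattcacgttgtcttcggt

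The COL17A1 sequence is chr10:104085831-104086130 on the minus strand and the gained region covers 35 of its 300 bases. SORCS3 is chr10:104641040-104641339 on the plus strand with 162 bases covered, and SPRN is chr10:133424576-133424875 on the minus strand with 222 bases covered. The SPRN region was weak, with a −log10 q of 5.16 and 3.11 in Control libraries 1 and 2, at percentiles 13.6 and 1.25 of their lists. The SORCS3 region was weak too, at percentiles 12.7 and 16.8 of the FOXD2 lists. The shared regions cover all 300 bases of CCDC186 (chr10:114174171-114174470, minus strand), TRIM37 (chr17:59106831-59107130, minus strand) and NOL11 (chr17:67717686-67717985, plus strand). The COL17A1 promoter has a GC content of 40.7%, against 67.7% in SORCS3, 75.0% in SPRN, 70.3% in CCDC186, 69.7% in TRIM37 and 64.3% in NOL11. None of the 6 held the forkhead letters, which were in 2.82% of 567 promoters of the 10q and 17q segments, in 4.96% of those in the rest of chromosomes 10 and 17 and in 2.62% of all 15812 promoters. GC boxes were in 64.7% of the segment promoters and 58.5% of all, CCAAT boxes in 38.4% and 36.3%, ETS letters in 14.1% and 14.2%, E-boxes in 10.2% and 8.87%, and AP-1 letters in 5.47% and 5.76%. A match is only a match of letters and does not show that a factor was bound.

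Called peaks lay closer together in the 3 segments than in the rest of their chromosomes. The merged regions numbered 50.9 per Mb on 8q, against 36 per Mb on the rest of chromosome 8. They numbered 73.2 per Mb on 10q, against 42.1 on the rest of chromosome 10, and 93.5 per Mb on 17q, against 63.6 on the rest of chromosome 17. Over all 3 the density was 67.3 per Mb in the segments and 44.4 per Mb in the rest, a ratio of 1.51. The number of protein-coding genes per Mb was nearly level, at 7.32 in the segments and 7.18 in the rest, but the chromosomes differed: the ratio of gene density was 0.823 on chromosome 8, 0.880 on chromosome 17 and 1.33 on chromosome 10. Counted per gene, the segments held 9.19 regions and the rest 6.19. Regions within 1000 bp of either end of a protein-coding gene, called gene-end regions here, made up 11.9% of the segment regions, against 14.6% in the rest and 14.9% of all regions. Gene-end regions were 1.24 times as dense in the segments and all other regions 1.56 times.

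All 4 libraries gave this difference in density. The density of called intervals in the segments over that in the rest was 1.5 and 1.52 in FOXD2 libraries 1 and 2, against 1.51 and 1.47 in Control libraries 1 and 2. The log2 ratio averaged 0.59 ± 0.02 (SD, n = 4), with a two-sided exact sign-flip permutation p of 0.13 over the libraries, the smallest that 4 libraries can give. Counted only in windows of 1 Mb that hold part of a protein-coding gene, the log2 ratio averaged 0.55. The groups overlapped. FOXD2 libraries averaged 0.60 and Control libraries 0.58 on the log2 scale, and the exact permutation p of that difference was 0.67, where 0.33 is the smallest possible.

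**Figure D1:**
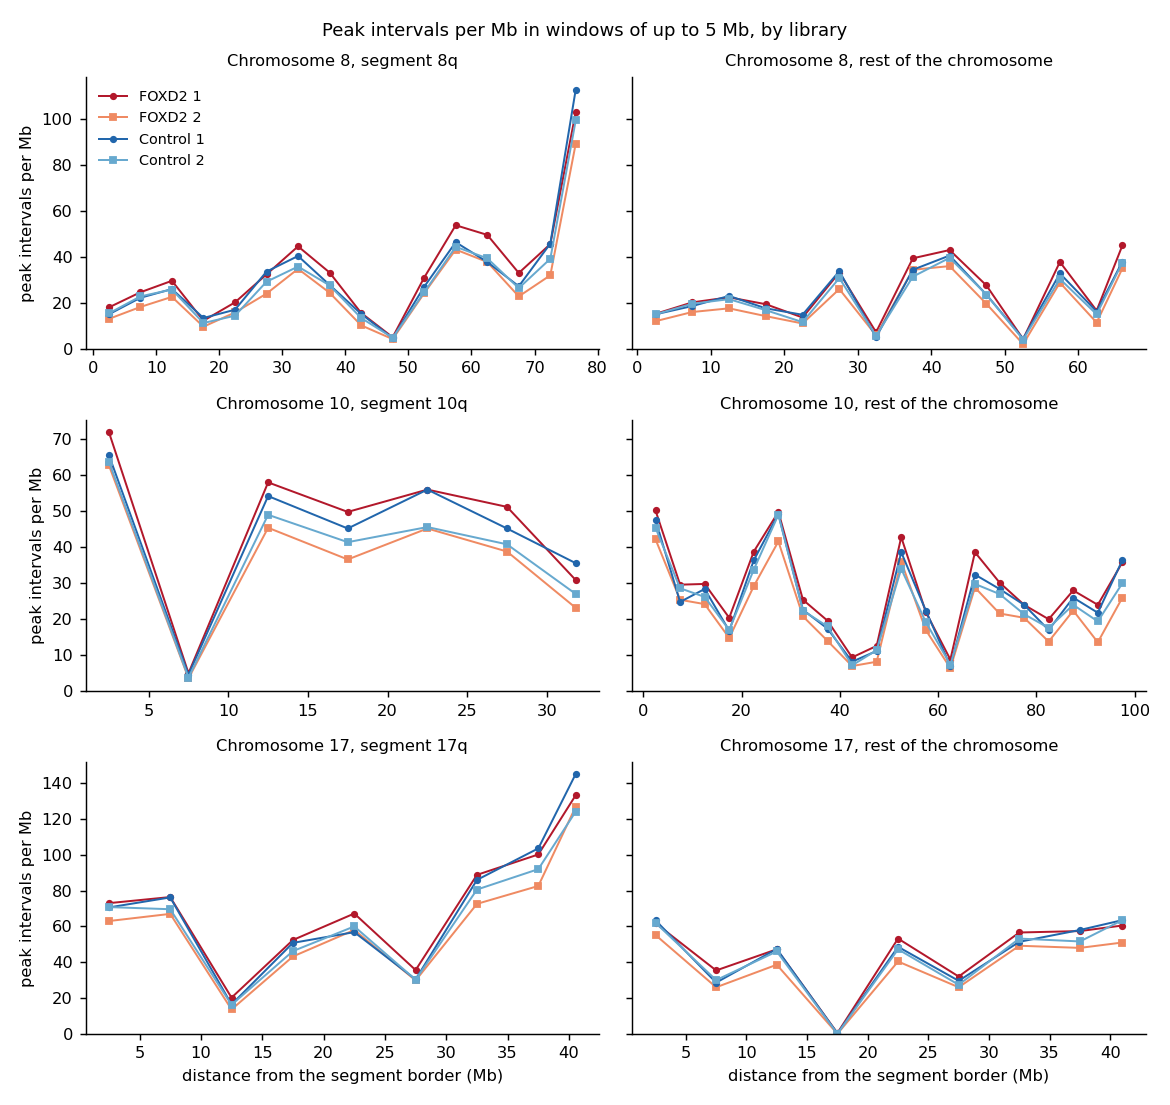
Called peak intervals per Mb (vertical axes) in windows of up to 5 Mb by distance in Mb from the segment border, for the segments (left) and the rest of each chromosome (right). Each line is a library; the 4 lines keep close to each other, and the last windows of 8q and 17q are the densest, with 155 and 192 merged regions per Mb.

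The density was uneven along each arm. The last 3.06 Mb of 8q, which hold 95 protein-coding genes, had 155 merged regions per Mb, and a gene-poor window 45 to 50 Mb beyond the border had 9.60. On 10q the first 5 Mb had 100.0 regions per Mb and the next 5 Mb 8.80, with 76 and 2 genes. On 17q the values ran from 28.0 per Mb, at 10 to 15 Mb beyond the border, to 192 per Mb in the last 1.1 Mb. The densest windows in the rest had 78.5 per Mb on chromosome 8, 73.2 on chromosome 10 and 93.0 on chromosome 17. The sparsest had 6.6 per Mb on chromosome 8, 13.2 on chromosome 10 and 0.6 on chromosome 17. That last window, at 22 to 27 Mb, holds no protein-coding gene. Such stretches count in the length of the rest and lower its density. Among single genes, the longest lists of regions belonged to large genes: TRAPPC9 on 8q, a subunit of a vesicle-tethering complex, had 98, RBFOX3 on 17q, a neuronal splicing factor, had 71, RPTOR on 17q, the mTORC1 scaffold, had 64, and DOCK1 on 10q, an activator of RAC, had 63. In all, 1084 genes of the segments were the nearest gene within 100 kb of at least 1 region, and 1300 regions had no protein-coding gene within that distance.

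The segments were also compared with the rest by the height of peaks at gene ends, most of which were called in all 4 libraries. The fold and the Poisson p that the authors' peak caller gave for each interval together fix its pileup, the number of fragments stacked at the summit. On 8q the median pileup of gene-end intervals was 94 and 83 in FOXD2 libraries 1 and 2 and 104 and 98 in Control libraries 1 and 2. On the rest of chromosome 8 it was 63 and 55 in FOXD2 libraries and 68 and 66.5 in Control libraries. No segment value of a library was as low as its value for the rest.

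The other arms gave the same order. On 10q the medians were 83 and 74 in FOXD2 libraries and 95 and 86 in Control libraries, against 65 and 57 (FOXD2) and 70 and 65.5 (Control) on the rest of chromosome 10. On 17q they were 89 and 78 in FOXD2 libraries and 94.5 and 90 in Control libraries, against 69 and 59 (FOXD2) and 74 and 70 (Control) on the rest of chromosome 17. The ratio of segment to rest was 1.5 on 8q, 1.31 on 10q and 1.29 on 17q. Over all 3 it lay between 1.36 and 1.37 in every library (mean log2 ratio 0.45 ± 0.00425, SD, n = 4; exact sign-flip permutation p = 0.13, the smallest possible). The 90th percentile of gene-end pileup gave a ratio of 1.42.

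Set against all gene-end intervals of the same library, the median was 1.43 ± 0.034 times as high on 8q, 1.28 ± 0.041 on 10q and 1.33 ± 0.044 on 17q (SD, n = 4), while the rest of chromosomes 8, 10 and 17 stood at 0.954, 0.974 and 1.03. The other 19 autosomes, each taken whole, lay between 0.967 (chromosome 4) and 1.06 (chromosome 16), and chromosome X stood at 0.573. FOXD2 and Control libraries averaged 0.45 each for the log2 ratio of segment to rest (exact permutation p = 0.67). The segments are parts of chromosomes, and a part can stand higher than its whole chromosome. The end of chromosome 16, outside the segments, stood at 1.69 from 80 Mb on. Copy number itself was not measured, and its part in the height of peaks was not tested.

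**Figure D2:**
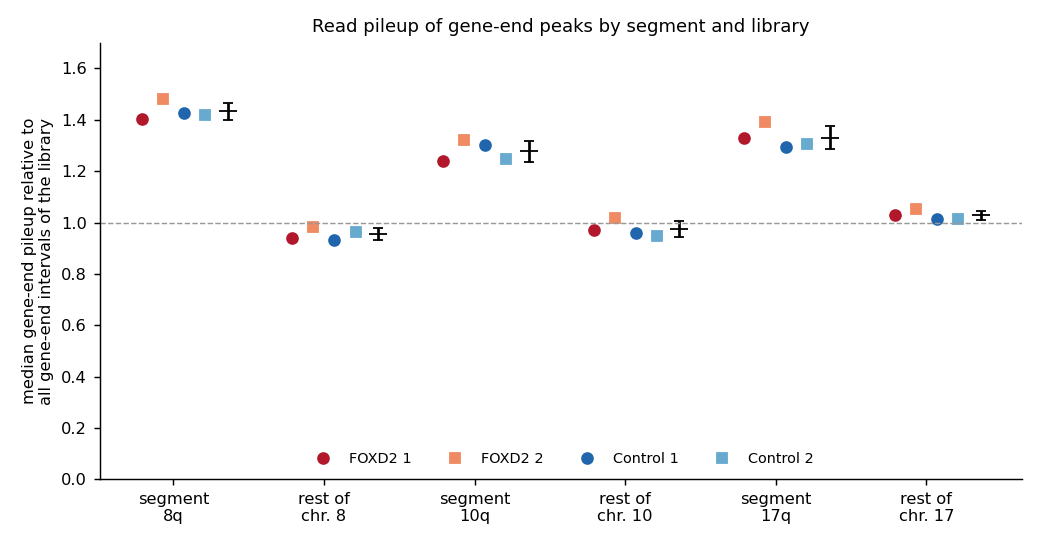
Median pileup of gene-end peak intervals, relative to the median of all gene-end intervals of that library (vertical axis, from 0), for each segment and the rest of its chromosome. Points are libraries and black marks give the mean and SD over 4 libraries; every segment point lies between 1.24 and 1.48, and every point of the rest between 0.932 and 1.05.

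The local background that the peak caller set beside each peak was also higher in the segments. The median background of gene-end intervals was 1.51 times that of the rest over the 3 arms, and the ratio was 1.52 and 1.48 in FOXD2 libraries and 1.51 and 1.52 in Control libraries. Away from gene ends the background ratio was 1.34 and the pileup ratio 1.17. For intervals with a pileup of at most 20 and no other interval within 10 kb, the ratio of mean backgrounds was 1.06 and 1.12 in FOXD2 libraries and 1.07 and 1.1 in Control libraries. Many of these had the lowest background of their list, a floor at which a difference cannot show. Of those in the segments, 47.4% and 24.9% (FOXD2) and 45.5% and 44.5% (Control) were at the floor. In the rest it was 59.3% and 39.5% (FOXD2) and 59.1% and 58.1% (Control). The fold, which divides pileup by background, was lower. The median fold of all intervals was 4.97 and 5.00 in the segments of FOXD2 libraries and 5.28 and 5.30 in those of Control libraries, against 5.32 and 5.50 (FOXD2) and 5.72 and 5.78 (Control) in the rest. The median percentile of fold within a list was 7.55 ± 1.07 points lower in the segments (SD, n = 4; exact sign-flip permutation p = 0.13). Over all intervals the median pileup was 28 and 30 (FOXD2) and 30 and 31 (Control) in the segments. It was 24 and 26 (FOXD2) and 26 and 27 (Control) in the rest, so over all intervals fold and pileup departed in opposite directions. At gene ends the median fold was lower in every library on 8q and 10q, but not on 17q. There it was 6.45 and 6.10 (FOXD2) and 6.71 and 6.69 (Control), against 6.36 and 6.34 (FOXD2) and 6.58 and 6.44 (Control) in the rest.

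The typical interval was no stronger by −log10 q. The median within-list percentile in the segments minus that in the rest was 0.22 and 0.17 points in FOXD2 libraries and −0.82 and −0.95 points in Control libraries. The mean over 4 libraries was −0.35 ± 0.62 points (SD; exact sign-flip permutation p = 0.5). By chromosome, the mean difference was −1.20 points on 8q, −2.69 on 10q and 0.26 on 17q.

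The strongest intervals by −log10 q, in contrast, were concentrated in the segments. The segments held 8.27% and 8.49% of all intervals in FOXD2 libraries and 8.28% and 8.19% in Control libraries. Among the top 1% of each list by −log10 q, they held 219 of 817 (26.8%) and 183 of 635 (28.8%) intervals in FOXD2 libraries, and 210 of 770 (27.3%) and 205 of 718 (28.6%) in Control libraries. Among the top 0.1% the segments held 54.2% and 68.6% in FOXD2 libraries and 63.2% and 69.4% in Control libraries, so most of the few highest intervals by −log10 q lay in these arms. By pileup the highest interval lay elsewhere: it had 227 and 184 fragments in the segments in FOXD2 libraries and 263 and 266 in Control libraries, against 339 and 262 (FOXD2) and 360 and 334 (Control) on other chromosomes.

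The rest of the same chromosomes showed no such excess. It held 6.85% and 6.46% of the top 1% in FOXD2 libraries and 7.27% and 6.41% in Control libraries, against 7.53% and 7.62% (FOXD2) and 7.49% and 7.64% (Control) of all intervals. The share of the top 1% in the segments exceeded their share of all intervals by 19.6 ± 0.93 percentage points (SD, n = 4; exact sign-flip permutation p = 0.13, the smallest possible). FOXD2 libraries averaged 19.4 points and Control libraries 19.7, with an exact permutation p of 0.67. Ranked by fold in place of −log10 q, the segments held 8.14% and 8.26% of the top 1% in FOXD2 libraries and 8.40% and 8.39% in Control libraries, which is their share of all intervals. The excess was present in the ranking by −log10 q and absent in that by fold.

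**Figure D3:**
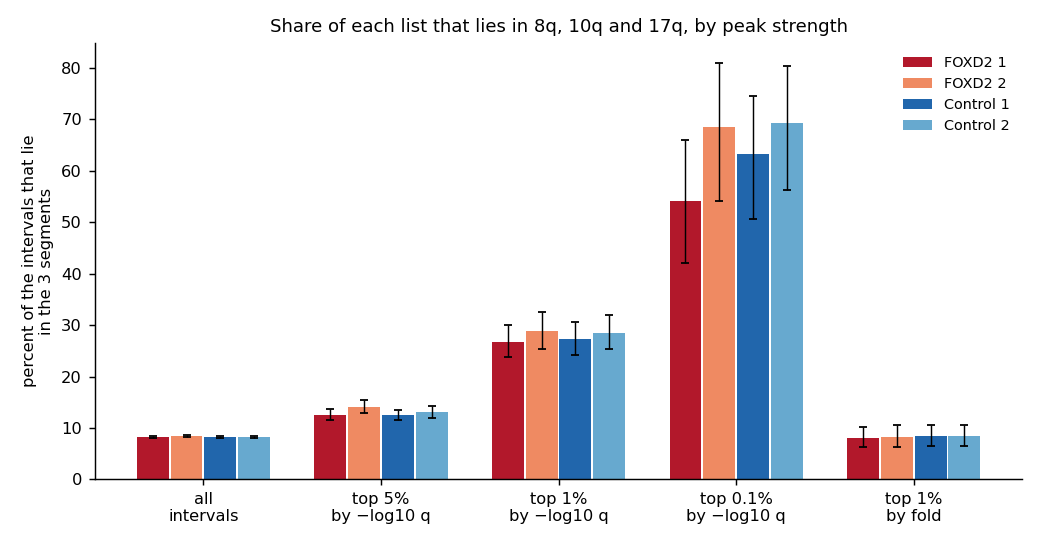
Percent of the intervals of each list that lie in 8q, 10q and 17q (vertical axis), for all intervals and for the strongest by −log10 q or by fold. Bars are libraries and whiskers are 95% Clopper-Pearson intervals, which cover counting error only; the bars stand near 8% for all intervals and for the top 1% by fold, near 27% for the top 1% by −log10 q, and above 54% for the top 0.1%.

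In windows of 10 Mb along all chromosomes, those with most top 1% intervals were mostly in the segments: 17q at 70 to 80 Mb was first, with 29 and 20 in FOXD2 libraries and 29 and 28 in Control libraries. Of the 13 windows with the highest sums, all but those on chromosomes 16 and 19 lay in a segment, and 1 of them, 40 to 50 Mb of chromosome 17, holds the border. The next 7 windows by that sum lay outside the segments. The promoters listed by RefSeq for 10q and 17q gave the same picture by gene. A promoter window of 300 bases met a top 1% interval in all 4 libraries for 68 of 567 segment promoters (12%), for 10 of 907 in the rest of chromosomes 10 and 17 (1.1%) and for 73 of 14338 on other chromosomes (0.509%). The share was 8.42% on 10q and 13.97% on 17q. Any peak in all 4 libraries was found at 70.0% of the segment promoters, against 60.3% in the rest and 59.7% elsewhere.

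The strongest peaks that all 4 libraries shared at gene ends were taken arm by arm. On 8q, the region at the end of PLEKHF2 (chr8:95133320-95134445), an endosomal adaptor, had a −log10 q of 182 and 140 in FOXD2 libraries and 201 and 200 in Control libraries. RBM12B, an RNA-binding protein, had 155 and 106 (FOXD2) and 187 and 148 (Control), and VIRMA, a subunit of the m6A writer complex, had 137 and 98.4 (FOXD2) and 166 and 148 (Control). Values of −log10 q also depend on depth, so they are read within a library.

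On 10q the highest was CCDC186 (chr10:114173699-114174964), which acts in dense-core vesicle maturation, with 156 and 111 in FOXD2 libraries and 180 and 173 in Control libraries. GSTO2, an omega-class glutathione transferase, followed with 138 and 101 (FOXD2) and 159 and 149 (Control), and EDRF1 with 126 and 143 (FOXD2) and 166 and 167 (Control). On 17q the highest was TRIM37 (chr17:59106199-59107472), a ubiquitin ligase that limits centriole assembly, with 159 and 115 in FOXD2 libraries and 209 and 187 in Control libraries. NOL11, a nucleolar factor of ribosomal RNA processing, had 129 and 107 (FOXD2) and 171 and 154 (Control). LRRC37A3 ranked between them, but it belongs to a family of near-identical copies on 17q among which reads can be divided. The lowest within-list percentile among these regions was 99.88, at VIRMA in FOXD2 library 2.

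Other promoters of the top 1% in all 4 lists, picked after their values were seen, were those of GRB2, MAP3K3, SPOP and TK1. GRB2, the adaptor that links receptors to RAS, had a −log10 q of 152 and 106 in FOXD2 libraries and 161 and 124 in Control libraries. MAP3K3, a kinase upstream of MAPK cascades, had 111 and 90.4 (FOXD2) and 172 and 178 (Control), and SPOP, a substrate receptor of a cullin ubiquitin ligase, had 140 and 94.2 (FOXD2) and 183 and 147 (Control). TK1, thymidine kinase, shares a window with AFMID and had 116 and 85.9 (FOXD2) and 168 and 156 (Control). Away from the ends of protein-coding genes, the strongest regions were inside AMZ2 on 17q, inside NDUFAF6 on 8q and, on 10q, at chr10:125521836-125522613, which lay 53909 bp from TEX36. The RefSeq promoter of AMZ2 lies in that region, so a start within a gene body counts here as away from its ends.

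Sharing among the libraries was close to that of the genome. Of the segment regions 3285 (32.0%) were called in all 4 libraries, against 32.8% in the rest and 32.5% of all regions. The 3 arms differed from their own chromosomes in different directions: 27.5% on 8q against 30.7% on the rest of chromosome 8, 28.8% on 10q against 31.0%, and 38.7% on 17q against 37.3%. Regions called in a single library made up 41.7% of the segment regions, against 41.1% in the rest and 40.8% of all regions. At gene ends 70.7% of segment regions were in all 4 libraries, against 68.6% in the rest, and away from gene ends 26.7% and 26.7%. A peak at a gene end in all 4 libraries was found for 269 of 350 protein-coding genes of 8q, 172 of 227 of 10q and 432 of 541 of 17q.

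The overlap of libraries, given as shared regions over regions in either library, was 0.534 for the FOXD2 pair and 0.571 for the Control pair within the segments. The 4 pairs of a FOXD2 with a Control library lay between 0.513 and 0.526. In the rest the FOXD2 pair had 0.525, the Control pair 0.570 and the mixed pairs 0.512 to 0.529. Regions in all 4 libraries were wider than those of the groups, with a median of 751 bp, against 391 bp for gained and 338 bp for lost regions of the segments.

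Regions were called gained where both FOXD2 and neither Control library had a peak, and lost in the reverse case. The segments held 435 gained regions (4.23%), against 3.89% of all regions, and 347 lost regions (3.38%), against 3.87% of all regions. Together 7.61% of the segment regions changed, against 7.76% of all regions. In the rest 337 (3.63%) were gained and 365 (3.93%) lost. Gained regions were thus 55.6% of the changed ones in the segments (95% Clopper-Pearson interval 52.1 to 59.1), against 48.0% in the rest (44.3 to 51.8). These intervals cover counting error only, and the exact permutation test over 2 libraries against 2 cannot give a p under 0.33. Over all regions 50.1% of the changed ones were gained, and the other 20 chromosomes, each taken whole, ranged from 36.6% (chromosome 19) to 59.3% (chromosome 18). The share in the segments exceeded that in the rest by 7.62 percentage points, and with 1 library left out the excess lay between 1.08 points (without Control library 2) and 4.30 points (without Control library 1). List lengths differed too: FOXD2 library 2 had the shortest list and FOXD2 library 1 the longest. With lists of equal length the segments held 398 gained and 303 lost regions, and the excess was 6.44 points.

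Gained regions outnumbered lost ones mostly on 8q and 17q. Set against the rest, the share of gained among changed regions was higher on each arm. It was 56.6% on 8q against 52.1%, 51.9% on 10q against 47.3%, and 57.0% on 17q against 44.8%, so 17q stood furthest from its rest. On 8q 192 were gained and 147 lost, against 101 and 93 on the rest of chromosome 8. On 17q 146 were gained and 110 lost, against 77 and 95 on the rest of chromosome 17. On 10q the numbers were nearly even, 97 gained and 90 lost, against 159 and 177 on the rest of chromosome 10. The windows varied, and those named here are among the most uneven. The last 3.06 Mb of 8q had 11 gained and 24 lost of 474 regions, and 60 to 65 Mb beyond the border 22 and 7 of 344. On 17q the window 20 to 25 Mb beyond the border had 32 gained and 11 lost of 468. Over all regions 3.89% were gained and 3.87% lost, and no window was tested. At gene ends lost regions outnumbered gained ones, with 13 gained and 20 lost in the segments, against 9 and 33 in the rest. As shares of gene-end regions these were 1.06% gained and 1.63% lost in the segments and 0.666% and 2.44% in the rest, against 0.975% gained and 2.12% lost over all gene-end regions.

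**Figure D4:**
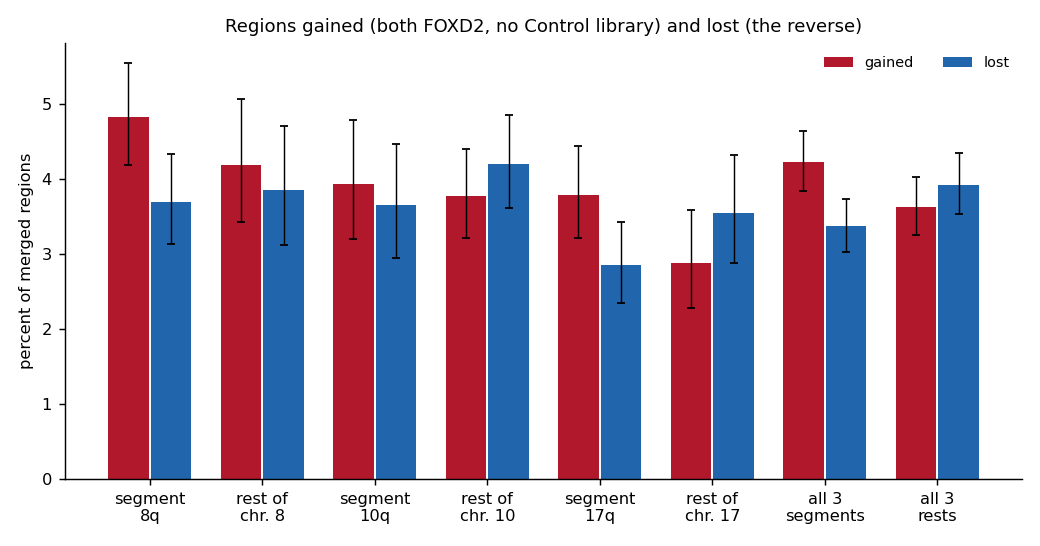
Percent of merged regions that were gained (both FOXD2 and no Control library) or lost (both Control and no FOXD2 library), for each segment and the rest of its chromosome. Whiskers are 95% Clopper-Pearson intervals of counting error; gained exceeds lost in each segment, at 4.23% against 3.38% over all 3, while the rest has 3.63% and 3.93%.

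Gained and lost regions were weaker than the median peak of their lists. The median within-list percentile of −log10 q of gained segment regions was 40.0 and 29.3 in the FOXD2 libraries, and that of lost regions 32.9 and 30.2 in the Control libraries. Regions in all 4 libraries stood at 77.8 and 70.5 in FOXD2 libraries and 75.5 and 73.5 in Control libraries. The lowest pileup of a called interval was 8 or 9 fragments.

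The strongest gained region of 8q (chr8:100017808-100018273) lay inside RGS22, a regulator of G-protein signalling, with a −log10 q of 34.8 and 27.0 in the FOXD2 libraries and no peak in Control libraries. The next was chr8:127041716-127042165, with no protein-coding gene within 100 kb, at 25.8 and 25.4, and the third lay inside PTK2, the focal adhesion kinase, at 31.4 and 24.5. On 10q the strongest gained regions were chr10:102198791-102199370, 25397 bp from ELOVL3, a fatty-acid elongase, at 19.2 and 23.5, and one inside SH3PXD2A, an invadopodium scaffold, at 31.5 and 18.6. On 17q the strongest was chr17:69539394-69540596 inside MAP2K6, the kinase that activates p38, at 26.5 and 23.5. The 2 further regions lay near LRRC37A3, with the reservation on its copies given above.

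Among lost regions, those of 17q were the strongest. A region inside STAT3 (chr17:42324958-42325410), the transcription factor downstream of IL-6 family cytokines, had no peak in FOXD2 libraries and a −log10 q of 29.0 and 29.6 in Control libraries. One inside VMP1, an autophagy protein, had 29.8 and 27.7 in Control libraries, and one inside USP36, a nucleolar deubiquitinase, 21.9 and 17.4. The region in STAT3 lies within 2 Mb of the 17q border. STAT3 as a whole had 1 gained and 1 lost of 6 regions, and its promoter was called in all 4 libraries. On 8q the strongest lost regions were 2055 bp from PAG1, an adaptor that recruits CSK, at 17 and 17.3 in Control libraries, and inside ZC3H3, an mRNA export factor, at 17.6 and 16.4. On 10q they lay inside PSD, at 15 and 22.4, and PLPP4, at 13.7 and 17.

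At the ends of genes, gained regions included GSDMC, a gasdermin, on 8q with a −log10 q of 17.9 and 9.17 in FOXD2 libraries, and CA3, a carbonic anhydrase, with 18.8 and 7.58. COL17A1, the hemidesmosomal collagen, had 15.9 and 13.7, SORCS3, a sorting receptor, 4.59 and 5.45, and EPN3, an epsin of endocytosis, 8.81 and 8.70. Lost regions at gene ends included HOXB13, a homeobox gene of the hindgut and prostate, with 8.89 and 13.8 in Control libraries, MRPS23, a mitochondrial ribosomal protein, with 8.61 and 21.2, PPY, pancreatic polypeptide, with 17 and 13.7, and VPS28, an ESCRT-I subunit, with 7.46 and 9.67. A gene-end region may stand beside another at the same gene: HOXB13, for example, had a gene-end peak in all 4 libraries. The lost region of MRPS23 lay 183 bp from the gene, at the end away from its start. The MRPS23 promoter was called in all 4 libraries, with 142 and 94.1 (FOXD2) and 125 and 129 (Control). Counted by gene, 4, 2 and 3 genes of 8q, 10q and 17q had gene-end peaks in each FOXD2 library and none in Control. The reverse held for 0, 0 and 9 genes. No such count was made beyond the 3 arms. The 9 genes on 17q therefore have no baseline and are not shown to set that arm apart.

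Changed regions were also counted by gene, over the regions nearest to each. Of the 1084 genes, 18 had at least 3 more gained than lost regions and 6 had at least 3 more lost than gained, 161 had only gained, 140 only lost, 87 both, and 696 neither. Genes outside the segments were not counted in this way, so these numbers do not show a trait of the segments. MRPS28 on 8q, a mitochondrial ribosomal protein, had 5 gained and 0 lost of 15 regions. It had 13 and 10 regions in FOXD2 libraries, against 7 and 5 in Control libraries, and the gained regions that chose this gene and those named next are part of such counts. The strongest of the 5, chr8:79963409-79963896, had a −log10 q of 34.3 and 17.7 in FOXD2 libraries, and 3 of them lay outside the gene, up to 45010 bp away. Its neighbour TPD52, a vesicle-trafficking protein often raised in carcinomas, had 4 gained and 0 lost of 18, with 14 and 12 regions in FOXD2 libraries and 7 and 9 in Control libraries.

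Other genes with a net gain were spread over the 3 arms. BCAS3 on 17q had 4 gained and 0 lost of 36, with 22 and 20 regions in FOXD2 and 14 and 9 in Control libraries. TANC2 had 5 gained and 1 lost of 35, and PRKCA, protein kinase C alpha, 4 gained and 1 lost of 47. On 8q YWHAZ, the 14-3-3 zeta protein, had 3 gained and 0 lost of 28, TRIB1, a pseudokinase that directs protein degradation, 4 and 1 of 24, and STK3, a Hippo kinase, 4 and 1 of 41. On 10q SORCS3 had 4 gained and 0 lost of 34, and SUFU, an inhibitor of Hedgehog signalling, and COL17A1 each had 3 gained and 0 lost, of 23 and 10.

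TCF7L2 on 10q, the main partner of beta-catenin in the colon, had 0 gained and 6 lost of 40 regions, the largest net loss of any segment gene. It had 26 and 17 regions in FOXD2 libraries and 26 and 21 in Control libraries, so the total number overlapped between the groups. The 6 lost regions ran from chr10:112957610-112957993 to chr10:113201371-113202434; 5 lay inside the gene and 1 lay 33693 bp away. Their −log10 q in Control library 1 was between 5.45 and 14.5 and in Control library 2 between 2.61 and 11.0. TCF7L2 kept 11 regions in all 4 libraries, and its promoter was called at 43.8 and 28.8 in FOXD2 libraries and 41.1 and 34.9 in Control libraries. DUSP5, a phosphatase of ERK, had 0 gained and 3 lost of 25, LHPP 1 gained and 4 lost of 31, and SYBU, ZC3H3 and C8orf90 on 8q 0 gained and 3 lost each.

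**Figure D5:**
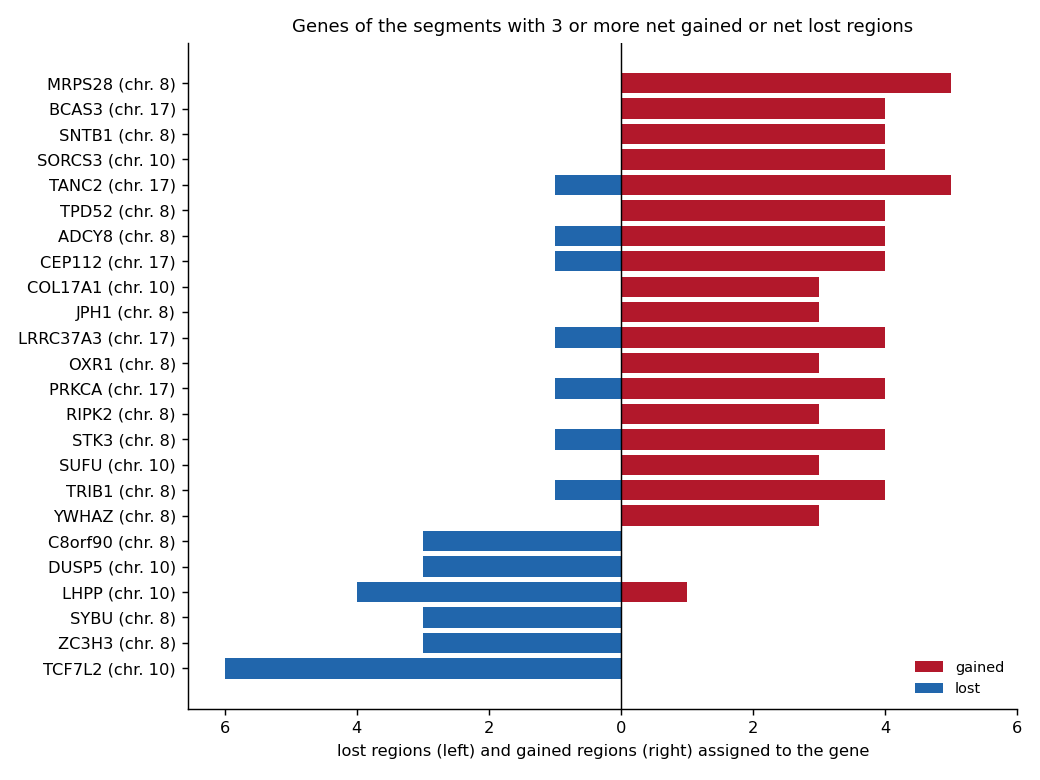
Lost regions (bars to the left of 0) and gained regions (bars to the right) assigned to each segment gene with a net of 3 or more. The 18 genes with a net gain reach 5 gained regions (MRPS28 and TANC2) and the 6 with a net loss reach 6 lost regions (TCF7L2). Genes outside the segments were not counted.

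The 10 gene lists were read against the percent of all regions gained (3.89%) and lost (3.87%). Genes of growth and chromatin on 8q (22 genes, all with a gene-end peak in all 4 libraries) had 22 gained (6.18%) and 9 lost (2.53%) of 356 regions. The whole of 8q had 4.83% gained and 3.70% lost. In this list 10 genes had a gained region and 7 a lost one. TPD52 had 4 gained and 0 lost, TRIB1 4 and 1, and YWHAZ 3 and 0. Within the list PTP4A3, a phosphatase of metastasis, went the other way with 1 gained and 3 lost. MYC had 1 gained and 0 lost of 27 regions, with 15 and 13 in FOXD2 libraries and 15 and 16 in Control libraries. Epithelial adhesion and keratinocyte genes (13 in the segments) had 12 gained (8.16%) and 2 lost (1.36%) of 147, of which TPD52 and COL17A1 gave 7 and GRHL2, an epithelial transcription factor, 2. TPD52, GRHL2 and TCF7L2 stand in more than 1 list.

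WNT pathway genes had 6 gained (2.96%) and 11 lost (5.42%) of 203 regions, with 6 of the lost ones at TCF7L2. RNF43, a ubiquitin ligase that removes WNT receptors, had 2 gained and 1 lost, and AXIN2, a feedback inhibitor, 1 gained and 0 lost of 25. Transcription factors of 10q had 4 gained (2.27%) and 9 lost (5.11%) of 176, with PAX2 at 0 and 2. Of the 9 lost, 6 were those of TCF7L2 already counted among the WNT genes, and without TCF7L2 the list had 4 gained and 3 lost of 136. The HOXB cluster had 0 gained and 3 lost (8.11%) of 37, 1 each at HOXB13, HOXB9 and HOXB8. These homeobox genes pattern the body axis, and 6 of 10 had a gene-end peak in all 4 libraries.

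The counts of the other 5 lists follow. Signalling genes of 10q had 16 gained (3.87%) and 19 lost (4.60%) of 413, with TCF7L2 again giving 6 of the lost, and those of 17q 12 gained (4.40%) and 12 lost (4.40%) of 273. Transcription factors of 17q had 5 gained (2.91%) and 8 lost (4.65%) of 172 and those of 8q 8 gained (4.26%) and 5 lost (2.66%) of 188, with GRHL2 at 2 and 1. Genome maintenance and mitosis genes had 2 gained (1.38%) and 3 lost (2.07%) of 145, and all 18 had a gene-end peak in all 4 libraries. No list was tested, since its members were chosen with results known.

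Of the series as a whole, the lists held 82739 and 64675 intervals in FOXD2 libraries 1 and 2 and 77752 and 72796 in Control libraries 1 and 2. Markers of colon epithelium had a gene-end peak for 7 and 8 of 8 genes in FOXD2 libraries and 7 and 8 in Control libraries. Markers of endothelium had one for 3 and 2 of 4 (FOXD2) and 1 and 1 (Control), of fibroblasts for 2 and 1 of 5 (FOXD2) and 2 and 2 (Control), and of leukocytes for 1 and 1 of 5 (FOXD2) and 2 and 2 (Control). Their part in the results was not tested. Peak lists do not show whether the FOXD2 insert was expressed.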

How the data were processed

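Open chromatin was measured by ATAC-seq in 2 FOXD2 and 2 Control libraries of HCT116. The submitters' processing notes name MACS2 2.2.7.1, Bowtie2 2.3.4.1, cutadapt 3.4, bedtools and Picard, and the build hg38. The sources used here give neither their settings nor whether read ends were shifted for Tn5. The authors deposited a peak list for each library and no pooled list. The values of an interval are the authors' fold over local background (a ratio), the deposited −log10 p-value and −log10 q-value of the summit, a deposited score that was not used here, and the deposited offset of the summit from the interval's start.

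Intervals overlapping by at least 1 bp were merged on chromosomes 1 to 22 and X with Python 3.11.15, numpy 2.4.6, pandas 2.3.3 and scipy 1.17.1. Regions were placed by their midpoint and single intervals by their summit. For merged regions only presence of a called interval was compared between groups. Differences between segment and rest, taken within each library, were also compared between groups. Segment length runs from the border to the last protein-coding gene. The length of the rest runs from the start of the chromosome to the border, with nothing left out. Pileup and background were recovered from fold, taken as pileup + 1 over background + 1, and the Poisson tail. They gave the deposited −log10 p within 0.002 for 100% of intervals below 60. Recovery and merging were checked on simulated data. Read depth is unknown. The lowest background was 1.84 fragments in both FOXD2 lists, and 1.68 and 1.71 in the Control lists, and it scales with depth only under equal settings. Peaks under 8 fragments (9 in FOXD2 library 2) were not called.

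Gene positions were those of 19974 protein-coding genes in RefSeq GRCh38.p14, which has no exons, so exonic or UTR position is not given. Promoter sequences matched 15812 of them. Each region went to the nearest gene within 100 kb. Named regions were, for each arm, the 3 gained, 3 lost and 3 shared regions with the highest within-list percentile in their weakest library, up to 4 gene-end changes, and genes with a net change of 3 or more. The text gives a selection of these. The promoters shown are a selection of those that named regions cover. GRB2, MAP3K3, SPOP and TK1 were chosen after their values were seen, as were the shares of the strongest intervals and the gene-end pileup.

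Tests were two-sided exact permutations over libraries, sign-flip for segment against rest and label exchange for FOXD2 against Control. None of these can pass 0.05, so no adjusted values are given. Shares carry 95% Clopper-Pearson intervals. The members and lists were chosen with earlier results of these data known. Figures were drawn with matplotlib 3.10.9.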

Additional observations from a re-analysis of the deposited data

Results flagged for a closer look

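The median within-list percentile of −log10 q, segments minus rest over chromosomes 8, 10 and 17, had opposite signs in the groups. It was 0.22 and 0.17 points in FOXD2 libraries 1 and 2, and −0.82 and −0.95 points in Control libraries 1 and 2. The FOXD2 mean exceeded the Control mean by 1.08 percentile points, and the exact permutation p was 0.33, the smallest that this test of 2 libraries against 2 can give. On 8q alone the FOXD2 mean was 0.30 and the Control mean −2.70 points, and the FOXD2 libraries differed in sign, at −1.1 and 1.7.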

How the results depend on the processing

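Density, gene-end pileup and the FOXD2 minus Control density difference kept their direction under every alternative run for them. Leaving out each library in turn, the log2 density ratio lay between 0.58 and 0.60, the gene-end pileup ratio (90th percentile, log2) between 0.50 and 0.51, and the FOXD2 minus Control difference between 0.000315 and 0.045. Paired by replicate number, with the replicate block, that difference was 0.023 (exact permutation p = 1). Pairing cannot change this mean, so the block was no check of its direction. The pairs themselves had opposite signs, at −0.0095 for replicate 1 and 0.0547 for replicate 2. The labels give nothing but the number to pair the libraries. Within the segments, same-numbered FOXD2 and Control libraries overlapped by 0.523 and 0.526 and crossed ones by 0.525 and 0.513. The excess of the top 1% in the segments, chosen for alternatives after seeing the data, lay between 19.3 and 19.9 points without single libraries and turned to −0.0111 points when ranked by fold; the cause was not tested.

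The median strength difference changed sign, to 0.43 points at a −log10 q of at least 5, 0.16 with lists of equal length and 0.68 without chromosome 8, and lay between −0.53 and −0.15 without single libraries. The cause was not tested. The difference in sharing by all libraries moved to 1.32 points without chromosome 8 and −2.97 without chromosome 17, and lay between −0.89 and −0.49 without single libraries. Gained regions fell to 243 without chromosome 8 and 289 without chromosome 17, and lost regions to 200 without chromosome 8, since fewer regions are counted. With 3 libraries the rule is looser: gained regions lay between 616 and 1895 and lost regions between 532 and 1609, and the excess in share gained lay between 1.08 (without Control library 2) and 4.30 points (without Control library 1), against 7.62 with all 4; it was 2.06 without FOXD2 library 2 and 3.19 without FOXD2 library 1. Gene-end pileup has no value without gene ends, and summit windows and the merging gap act only on merged regions. Read depth limits all peak calls, and weak regions absent from a list may be present below its threshold.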

Other observations

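Outside the segments, the end of chromosome 16 had high gene-end peaks too. From 80 Mb on, the median gene-end pileup was 113 and 94 in FOXD2 libraries and 126.5 and 113.5 in Control libraries, which is 1.69 ± 0.036 times the median of all gene-end intervals (SD, n = 4). The rest of chromosome 16 stood at 1.01 ± 0.015. The window of 80 to 90 Mb held 24 and 22 top 1% intervals in FOXD2 libraries and 24 and 23 in Control libraries, second after 17q at 70 to 80 Mb. This window was chosen after its values were seen, and no test was made of it.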
